A study of Mus musculus with 4 samples.

Results

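The genes of cytosolic aminoacyl-tRNA synthetases and of the ATF4 amino acid response were examined in AML c-Kit+ cells with and without overexpression of Suv39h1. The 35 genes were listed by symbol and found by Ensembl gene ID among the 23552 genes measured. They were 20 synthetase genes and 15 genes of amino acid supply and its stress response. Of the 35 genes, 33 had a mean FPKM (fragments per kilobase of exon, scaled to library size) of at least 0.5 over the 4 libraries and were tested. Trib3 and Slc7a11 were below that level and were not tested.

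RNA-Seq covered c-Kit+ leukemic cells from the bone marrow of moribund C57BL/6 mice with AML induced by MLL-AF9, a fusion oncogene made by a chromosomal translocation. Control cells (control-eGFP, replicates 3 and 4) and SUV-OE cells (Suv39h1-eGFP, replicates 2 and 3) both carried MLL-AF9 and eGFP, and all 4 libraries were of RNA-seq batch 2. Per the study's methods, serially transplanted leukemia cells were transduced with lentivirus, and sorted eGFP+ cells were grown in sublethally irradiated mice, so the cells compared were what each graft had become when the mice were moribund. Suv39h1 encodes a histone methyltransferase of heterochromatin. The labels do not say whether each library came from its own mouse, and p-values measure only the spread between these libraries. With 2 libraries per group an exact two-sided permutation test cannot give a p-value below 0.33.

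Aminoacyl-tRNA synthetases join each amino acid to its tRNA, and the ribosome depends on them for charged tRNA. When amino acids run short or misfolded protein accumulates, kinases phosphorylate eIF2α, general translation slows, and translation of ATF4 mRNA increases. ATF4 then binds DNA with partners of the C/EBP family and activates genes for amino acid uptake, amino acid synthesis and many synthetases, while CHOP, encoded by Ddit3, and TRIB3 act further along the stress response.

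The C/EBP-ATF response element is the DNA site through which ATF4 acts at such genes, so its core was looked for beside the genes whose levels are described here. The letters searched were TGATGNAA on either strand, in the 250 bases before and 50 bases after each RefSeq transcription start of the GRCm38.p6 build. A promoter window was given for 27 of the 35 genes, and 9 of the 27 genes held the core (33.3%), against 1219 of all 27025 genes with a window (4.51%). The 9 genes were Aars, Gars, Iars, Tars, Yars, Asns, Chac1, Slc7a11 and Trib3. In Iars, Yars and Trib3 the match lay after the start, as did a further match in Aars. The upstream matches of the other 6 genes are printed on the strand of the gene, with the core in capitals and up to 20 bases on each side. The core is read as TGATGNAA in Asns and Slc7a11 and on the opposite strand in the others.
Asns: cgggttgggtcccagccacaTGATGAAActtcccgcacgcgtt
Slc7a11: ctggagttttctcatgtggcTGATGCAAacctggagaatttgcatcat
Chac1: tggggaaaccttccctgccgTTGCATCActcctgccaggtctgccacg
Aars: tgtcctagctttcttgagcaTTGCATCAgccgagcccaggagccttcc
Gars: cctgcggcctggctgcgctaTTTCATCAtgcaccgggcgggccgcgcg
Tars: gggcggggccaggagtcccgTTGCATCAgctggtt
The core began 23 bases before the start in Asns (chr6:7693210-7693252, minus strand) and 66 bases before it in Slc7a11 (chr3:50443652-50443699, minus strand). Slc7a11 held a further copy, in the opposite direction, 47 bases before its start. The distance was 193 bases in Chac1 (chr2:119351029-119351076, plus strand), 112 in Aars (chr8:111033710-111033757, plus strand), 30 in Gars (chr6:55037951-55037998, plus strand) and 15 in Tars (chr15:11399659-11399693, minus strand). A match of letters is a description of the window and does not show that ATF4 was bound there. Many of the 35 genes were listed because they belong to the ATF4 response, and their share was not tested against that of all genes.

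The E-box CACGTG, the site read by MYC and by other factors of its family, was found in 4 of the 27 genes with a window (14.8%), against 8.09% of all genes with a window. All 4 were synthetase genes, namely Aars, Farsb, Iars and Tars. CACGTG reads the same on both strands and the letters of either motif do not contain the other.

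Depth was similar between libraries, with an estimated 23561092 and 21189218 reads in control replicates 3 and 4, against 20085719 and 20902959 in SUV-OE replicates 2 and 3. Of these, 13805463 and 12276729 reads in control against 11849533 and 12287139 in SUV-OE lay on genes whose FPKM gave whole reads, as 27 of the 35 genes did. At the scaling factors inferred from the steps of the FPKM, 3 reads on 1 kb of exon corresponded to 0.154 to 0.178 FPKM, a floor for counting error alone. Suv39h1 itself was at an FPKM of 12.4 in both controls, against 75.3 and 81.2 with overexpression. Kit, the gene of the sorted marker, was at 20.4 and 19.2 in control and at 28.6 and 25.4 in SUV-OE. The control libraries stood apart from each other in genes of other blood cells. Summed FPKM of 6 neutrophil markers was 720 and 2310 in control replicates 3 and 4 and 6490 and 7910 in SUV-OE replicates 2 and 3. That of 6 erythroid markers was 13.9 and 138 in control against 95.7 and 66.5 in SUV-OE, and that of 6 B-lymphoid markers was 18.3 and 27.1 in control against 31.7 and 64.1 in SUV-OE. The SUV-OE pair was above the control pair in all 6 neutrophil, 2 of 6 erythroid and 5 of 6 B-lymphoid markers, and no marker was at 0 in all 4 libraries. Of 4 plasma cell markers, Jchain, Sdc1 and Prdm1 also had the SUV-OE pair above the control pair, with a summed FPKM of 0.904 and 2.00 in control against 6.23 and 8.48 in SUV-OE, while Xbp1 overlapped. The part of these cells in the differences described here was not tested. In bulk RNA, fewer cells of a type and less RNA per cell cannot be told apart.

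To determine whether expression of the synthetase and ATF4 genes differed with Suv39h1 overexpression, SUV-OE was compared with control on log2(FPKM + 1) for the 13736 genes that reached a mean FPKM of 0.5, with limma and Benjamini-Hochberg adjustment over all of them. All 20 synthetase genes had a log2 fold change below 0, from -0.57 for Rars to -0.09 for Iars, with a median of -0.36, while the median of all tested genes was -0.02. In 16 of the 20 the SUV-OE pair was below the control pair, meaning that each SUV-OE library was under each control library, and 10 had an unadjusted p-value under 0.05, all of them lower. Over the whole table of tested genes 28.4% had the SUV-OE pair below the control pair, 53.0% had a log2 fold change below 0, and 20.7% had an unadjusted p-value under 0.05, 10.4% as lower. Synthetase genes are well expressed, and among the 5492 genes that reached a mean FPKM of 10 the share with the SUV-OE pair below was 39.8%, the share below 0 was 68.0% and the share lower at an unadjusted p-value under 0.05 was 14.4%, with a median log2 fold change of -0.13. No synthetase gene, and none of the 33 tested genes, passed an adjusted p-value of 0.05 in limma, where 1.29% of all genes did, 0.430% as lower, and 1.22% with at least 1 log2 unit of difference as well. At an unadjusted p-value under 0.05 there were 14 of the 33. These unadjusted counts depended on the processing. Under quantile normalization 5 synthetases and 7 of all 33 genes had such a p-value, as did 19.3% of all genes tested. With FPKM rescaled to the estimated reads, an alternative chosen after seeing the data, the counts were 5 and 9, against 19.5%. In limma-voom they were 12 and, among 35 genes tested, 16, against 24.6%. They were 0 and 1 without SUV-OE replicate 2 (8.49% of all genes), 1 and 3 without SUV-OE replicate 3 (9.17%), 8 and 12 without control replicate 3 (22.9%), and 13 and 18 without control replicate 4 (28.2%). limma-voom on the estimated reads, which tested all 35 genes, called 1, Asns, where it called 6.19% of all genes tested and 1.84% as lower.

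Summed over the 20 synthetase genes, FPKM was 922 and 883 in control against 687 and 708 in SUV-OE, and each control total was above each SUV-OE total. As a share of all FPKM in the library this was 0.259% and 0.213% for control replicates 3 and 4, against 0.202% and 0.190% for SUV-OE replicates 2 and 3. On this scale control replicate 4 lay closer to the SUV-OE libraries than to the other control library.

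**Figure D1:**
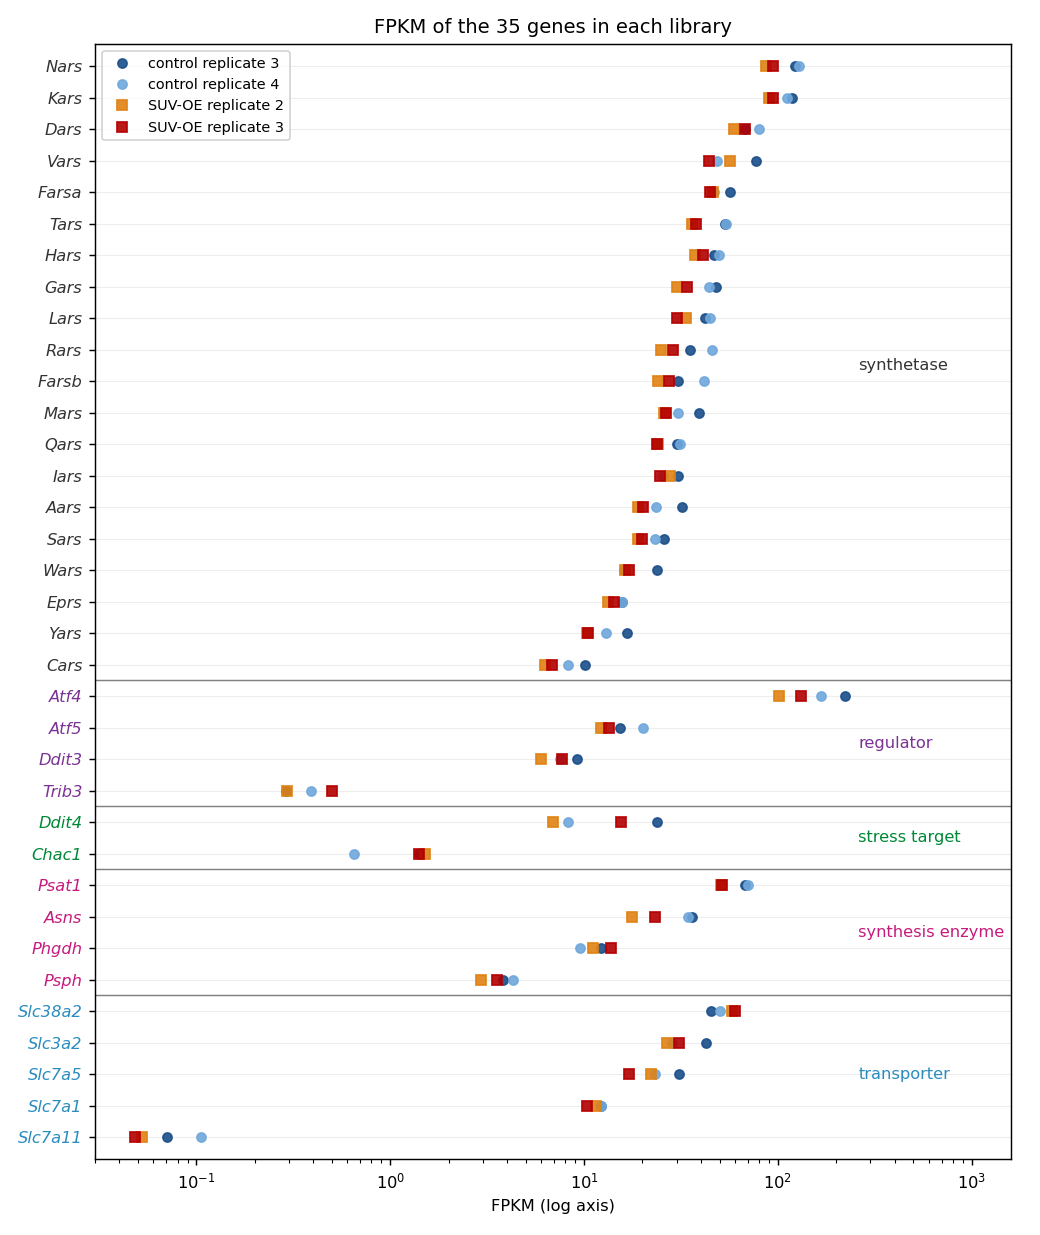
FPKM (log axis) of each of the 35 genes in the 4 libraries, grouped by role, with circles for control and squares for SUV-OE. Among the synthetases the squares lie left of both circles in 16 of 20 genes, while Slc38a2 is the transporter with both squares to the right of both circles.

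Levels of the synthetases ranged from a mean FPKM of 7.90 for Cars, the cysteine enzyme, to 108 for Nars, the asparagine enzyme, with a median of 32.4. Among the most highly expressed, Nars was at 122 and 128 in control and at 86.8 and 94.2 in SUV-OE. On the log2 scale it differed by -0.47 (standard error, SE, 0.13, limma adjusted p = 0.164). Kars, the lysine enzyme, was at 119 and 112 in control and at 90.1 and 94.8 in SUV-OE, with a log2 fold change of -0.32. For both enzymes the SUV-OE libraries agreed closely and lay below both control libraries.

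Tars (ENSMUSG00000022241, chr15:11382301-11399665 in mm10, minus strand), which charges threonine tRNA and whose promoter match is printed above, had the smallest p-value of the 33 tested genes. Its FPKM was 53.2 and 54.0 in control against 36.0 and 37.9 in SUV-OE, a log2 fold change of -0.53 (SE 0.11, unadjusted p = 0.00588, limma adjusted p = 0.109). The gap between the groups was many times the gap within either. Gars, the glycine enzyme, was at 47.9 and 44.0 in control and at 30.0 and 33.9 in SUV-OE (log2 fold change -0.51, SE 0.13, limma adjusted p = 0.139). Lars, which charges leucine tRNA and also senses leucine for mTORC1, was at 42.3 and 44.9 in control and at 33.4 and 30.1 in SUV-OE (log2 fold change -0.45, SE 0.12, limma adjusted p = 0.151). The groups did not overlap in Gars or Lars.

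Rars, the arginine enzyme, had the largest difference of the synthetases and a wider spread between controls. It was at 35.3 and 46.0 in control and at 24.9 and 28.8 in SUV-OE (log2 fold change -0.57, SE 0.17, limma adjusted p = 0.176). Qars, the glutamine enzyme, had one of the smaller spreads, at 30.2 and 31.1 in control against 24.0 and 23.9 in SUV-OE (log2 fold change -0.34, SE 0.11, limma adjusted p = 0.181). Cars was at 10.1 and 8.30 in control and at 6.28 and 6.87 in SUV-OE (log2 fold change -0.43, SE 0.14, limma adjusted p = 0.198). Yars, the tyrosine enzyme, was at 16.7 and 13.0 in control and at 10.4 and 10.5 in SUV-OE (log2 fold change -0.45, SE 0.15, limma adjusted p = 0.200). In each of these genes the SUV-OE pair was below the control pair.

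Aars and Sars, for alanine and serine, also had an unadjusted p-value under 0.05, at 0.0478 and 0.0487, with log2 fold changes of -0.47 and -0.31. Aars was at 32.0 and 23.4 in control and at 18.9 and 20.1 in SUV-OE, with the wider gap between the controls. Farsb, Mars and Hars, for phenylalanine, methionine and histidine, had groups that did not overlap and log2 fold changes of -0.46, -0.38 and -0.29. Eprs, the fused glutamate and proline enzyme, was at 15.7 in both controls and at 13.3 and 14.3 in SUV-OE, a difference of -0.17 on the log2 scale. Some of these genes share exon bases with a neighbour, and the library kit does not mark strand, so their reads cannot be told apart there. The shared stretch was 9.47% of the exon bases of Farsb (with Sgpp2), 7.97% of those of Hars (with Hars2) and 14.3% of those of Aars (with Exosc6, on the same strand).

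The groups overlapped in 4 synthetases, Dars, Iars, Vars and Wars, for aspartate, isoleucine, valine and tryptophan. Vars was at 77.1 and 48.5 in control and at 56.9 and 44.1 in SUV-OE, so the control libraries differed from each other by more than the group means did. Wars was at 23.8 and 16.0 in control and at 16.3 and 17.0 in SUV-OE, and control replicate 4 was the lowest of the 4 libraries. Iars was at 30.6 and 25.5 in control and at 27.7 and 24.8 in SUV-OE. Its 95% confidence interval ran from -0.46 to 0.28 on the log2 scale.

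Phenylalanyl-tRNA synthetase is built from an α subunit, encoded by Farsa, and a β subunit, encoded by Farsb. Farsa was at 56.4 and 46.6 in control and at 46.5 and 44.5 in SUV-OE, a log2 fold change of -0.17, while Farsb was at 30.7 and 41.8 in control and at 24.1 and 27.5 in SUV-OE. The ratio of Farsa to Farsb in FPKM, which is per length, was 1.83 and 1.11 in control against 1.93 and 1.62 in SUV-OE. The ratios overlapped between the groups.

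Synthetases fall into structural classes I and II, and some are bound together in the multisynthetase complex. The 9 class I genes had a median log2 fold change of -0.38 and the 10 class II genes one of -0.39, with Eprs holding an enzyme of each class. The 8 genes of the complex had a median of -0.33 and the 12 outside it one of -0.44, with the SUV-OE pair below the control pair in 6 of 8 and 10 of 12. These subdivisions were described without a test.

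**Figure D2:**
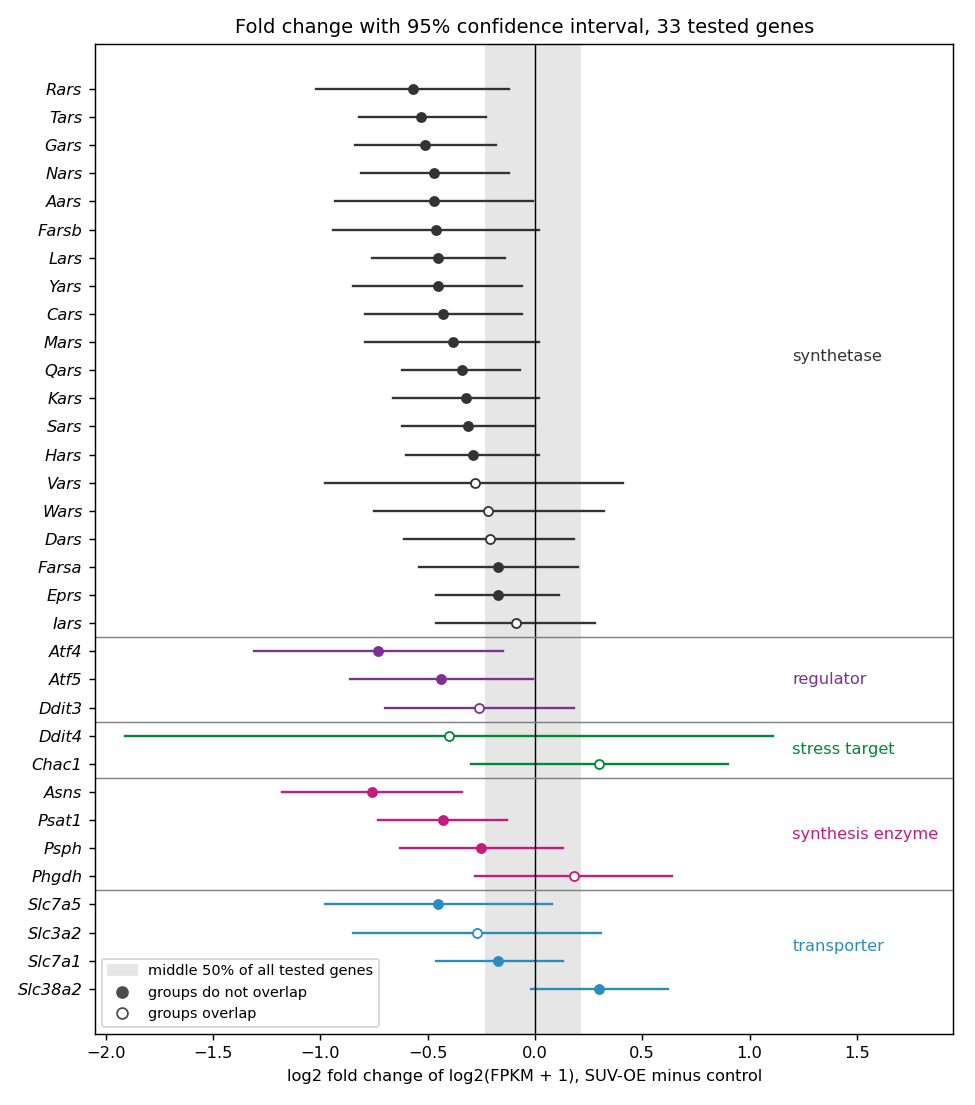
Log2 fold change of log2(FPKM + 1), SUV-OE minus control, of the 33 tested genes with 95% confidence intervals from limma. Filled points are genes whose groups do not overlap, open points are genes whose groups overlap, and the grey band holds the middle 50% of all tested genes (-0.23 to 0.21). All 20 synthetases are left of 0, and Slc38a2, Chac1 and Phgdh are the genes to the right of it.

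The 15 other genes were more mixed. Of the 13 tested, 10 had a log2 fold change below 0 and 3 above, from -0.76 for Asns to 0.30 for Slc38a2 and Chac1, with a median of -0.27. The SUV-OE pair was below the control pair in 7 and above it in 1, Slc38a2. Of all tested genes, 25.4% had the pair above. An unadjusted p-value under 0.05 was found for 4 of the 13, Asns, Atf4, Psat1 and Atf5, all lower, against 10.4% of all tested genes as lower.

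Atf4 (ENSMUSG00000042406, chr15:80255184-80257541 in mm10, plus strand), the transcription factor of the response, was the most highly expressed of the 35 genes. It was at 221 and 166 in control and at 101 and 131 in SUV-OE, with a log2 fold change of -0.73 (SE 0.22, unadjusted p = 0.0237, limma adjusted p = 0.179). Both SUV-OE libraries were below both controls, although the libraries of each group also differed. ATF4 protein is set largely by translation and was not measured here. Atf5, a related factor that is translated in the same way, was at 15.3 and 20.2 in control and at 12.2 and 13.4 in SUV-OE (log2 fold change -0.44, SE 0.16, limma adjusted p = 0.236). The gene of CHOP, Ddit3, was at 9.24 and 7.54 in control and at 6.02 and 7.72 in SUV-OE (log2 fold change -0.26, SE 0.17, limma adjusted p = 0.449), and its groups overlapped. Ddit3 shares 105 exon bases (6.13%) with a further annotated gene of the same name on the same strand. It shares 68 with Mars on the opposite strand, and 4.11% of the exon bases of Atf5 are shared with Nup62 and Il4i1. The ratio of Atf4 to Ddit3 in FPKM was 23.9 and 22.0 in control against 16.9 and 17.0 in SUV-OE.

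Trib3, a pseudokinase that CHOP and ATF4 induce, was at a low level. It had 12 and 14 reads in control against 11 and 19 in SUV-OE, or an FPKM of 0.290 and 0.390 against 0.292 and 0.503. The exact 95% Poisson intervals of these reads ran from 5.49 to 29.7 and all overlapped, so a difference was not detectable at this depth.

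The stress targets Chac1 and Ddit4 varied within the groups. Chac1, a glutathione-degrading enzyme induced by ATF4, was at 1.41 and 0.652 in control and at 1.51 and 1.41 in SUV-OE (log2 fold change 0.30, SE 0.23, limma adjusted p = 0.508). These values came from 45 and 18 reads in control against 44 and 41 in SUV-OE, and control replicate 4 was the library that stood apart. Ddit4, an inhibitor of mTORC1, was at 23.7 and 8.27 in control and at 6.92 and 15.6 in SUV-OE. The 2 libraries of each group differed by more than the groups did, and its 95% confidence interval ran from -1.91 to 1.11 on the log2 scale.

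Among the enzymes of amino acid synthesis, Asns (ENSMUSG00000029752, chr6:7675169-7693254 in mm10, minus strand), which makes asparagine from aspartate and glutamine, had the largest log2 fold change of the 33 tested genes. It was at 35.9 and 34.3 in control and at 17.7 and 23.3 in SUV-OE, with a log2 fold change of -0.76 (SE 0.16, unadjusted p = 0.00605, limma adjusted p = 0.110). Both control libraries were well above both SUV-OE libraries. In limma-voom its log2 fold change was -0.79 with an adjusted p of 0.0420. It stayed above an adjusted p of 0.05 in each limma alternative run, from 0.102 to 0.586, and the highest was without SUV-OE replicate 2.

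The serine synthesis pathway, which runs from PHGDH through PSAT1 to PSPH, gave mixed values. Psat1 was at 67.9 and 70.5 in control and at 51.1 and 51.2 in SUV-OE (log2 fold change -0.43, SE 0.11, limma adjusted p = 0.151). Phgdh, the first enzyme, was at 12.3 and 9.51 in control and at 11.1 and 13.8 in SUV-OE (log2 fold change 0.18, SE 0.18, limma adjusted p = 0.612), and its groups overlapped. Psph, the last, was at 3.81 and 4.31 in control and at 2.94 and 3.57 in SUV-OE, a log2 fold change of -0.25. For Psph 10.4% of the exon bases are shared with Cct6a on the opposite strand. Whether the fold changes of the 3 enzymes differ from each other was not tested.

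Of the transporters, Slc7a5 and Slc3a2 encode the light and heavy chains of the exchanger LAT1-4F2hc, which carries large neutral amino acids. Slc7a5 was at 31.0 and 23.1 in control and at 22.1 and 17.0 in SUV-OE (log2 fold change -0.45), with groups that did not overlap. Slc3a2 was at 42.8 and 28.4 in control and at 26.8 and 30.9 in SUV-OE (log2 fold change -0.27), with groups that did. The ratio of Slc7a5 to Slc3a2 in FPKM was 0.726 and 0.814 in control against 0.825 and 0.549 in SUV-OE, with no order between the groups.

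Slc38a2, the SNAT2 carrier of small neutral amino acids, was the only gene of the 33 tested with the SUV-OE pair above the control pair. It was at 45.0 and 50.3 in control and at 58.1 and 59.9 in SUV-OE, with a log2 fold change of 0.30 (SE 0.12, limma adjusted p = 0.260). The arginine and lysine carrier Slc7a1 was at 12.3 in both controls and at 11.5 and 10.3 in SUV-OE (log2 fold change -0.17). Slc7a11, the cystine carrier xCT, had 19 and 25 reads in control against 13 and 12 in SUV-OE, or an FPKM of 0.0702 and 0.106 against 0.0526 and 0.0485. On its 13922 exon bases 3 reads are 0.0111 to 0.0128 FPKM, so it was above the floor in each library. limma-voom gave a log2 fold change of -0.74 with an SE of 0.46 and an adjusted p of 0.366.

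**Figure D3:**
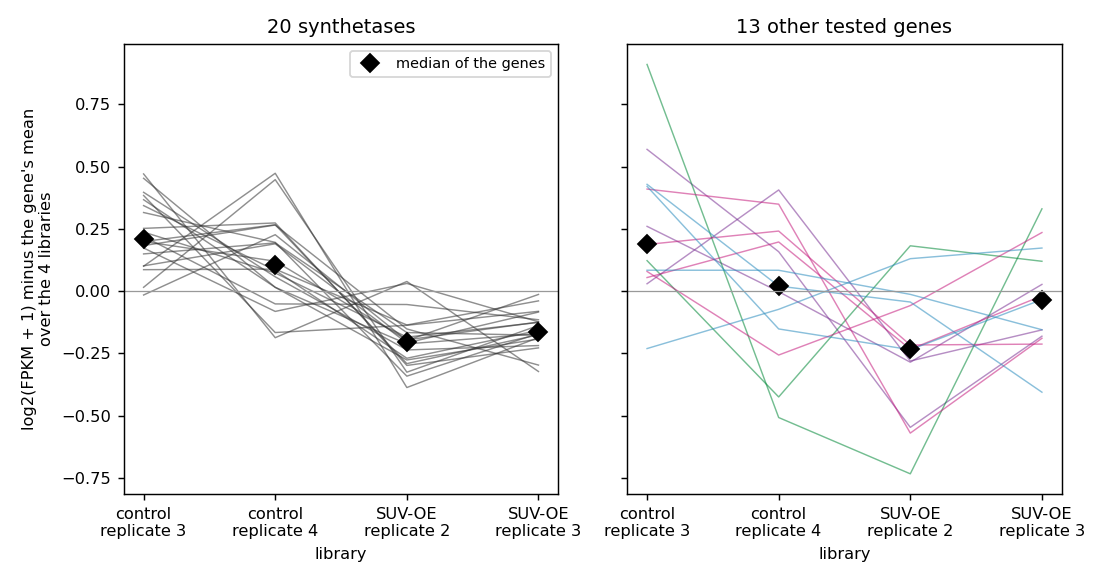
Each line is 1 gene, drawn as log2(FPKM + 1) in a library minus the mean of that gene over the 4 libraries, for the 20 synthetases (left) and the 13 other tested genes (right, coloured by role), and diamonds are medians. Synthetase medians were 0.21 and 0.10 in control against -0.20 and -0.16 in SUV-OE, while among the other genes control replicate 4 (0.02) and SUV-OE replicate 3 (-0.03) lie close together.

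The libraries did not contribute equally. The median synthetase lay 0.21 above its own mean in control replicate 3 and 0.10 above it in control replicate 4, and 0.20 and 0.16 below it in SUV-OE replicates 2 and 3, on the log2(FPKM + 1) scale. The highest value was in control replicate 3 for 11 synthetases and in control replicate 4 for 9, and the lowest was in SUV-OE replicate 2 for 14, in SUV-OE replicate 3 for 5 and in control replicate 4 for 1. The 2 control libraries differed by a median of 0.25 for the synthetases and 0.22 for all tested genes, and the 2 SUV-OE libraries by 0.10 and 0.13. Without control replicate 3, 17 of 20 synthetases had a log2 fold change below 0, and the median was -0.29. Iars, Vars and Wars then had log2 fold changes of 0.04, 0.04 and 0.06. Of all 13736 tested genes 7107 were below 0 in that fit, with a median of -0.01. All 6 neutrophil markers were above 0 in it, with a median of 1.59, and the part of such cells was not tested.

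The scale on which libraries were compared also mattered. The scaling factor inferred for each library was below its estimated reads over all genes, and the ratio of reads to factor was 1.21 and 1.26 in control against 1.13 and 1.18 in SUV-OE. With the FPKM rescaled to the total of estimated reads, the median of all tested genes moved from -0.02 to 0.05 and that of the synthetases from -0.36 to -0.27. On that scale 19 synthetases had a log2 fold change below 0, with Iars at 0.00, and the SUV-OE pair was below the control pair in 15, against 42.9% and 19.9% of all tested genes. The groups of Slc7a5 and of Slc7a1 overlapped on that scale. Under quantile normalization the median was -0.24, with 19 below 0 and Iars at 0.02.

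Genes of the same pathways that are not among the 35 were read from the same fit, and none had a limma adjusted p-value under 0.05. limma-voom called Stc2, Eif4ebp1, Mthfd1l and Ass1 among the lists described in this section, where it called 6.19% of all genes it tested. Among 17 synthetases of the mitochondrion, which charge tRNA for the organelle's own ribosomes, 12 had a log2 fold change below 0 and 5 above, with a median of -0.12. The SUV-OE pair was lower in 7 and higher in 4, against 28.4% and 25.4% of all tested genes, the shares against which the other lists were also read. The largest differences were 0.74 for Lars2 (10.4 and 27.6 in control, 24.8 and 34.1 in SUV-OE, overlapping) and -0.43 for Iars2. The difference between the medians of the cytosolic and the mitochondrial enzymes was not tested. Of 7 partners of the cytosolic synthetases 5 were below 0, and the SUV-OE pair was lower in 4 and higher in none. Aimp1 and Aimp2, scaffold proteins of the multisynthetase complex, had log2 fold changes of -0.57 and -0.50, with limma adjusted p-values of 0.179 and 0.181.

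Upstream of ATF4, 16 genes of eIF2, its kinases and their regulators, its phosphatase subunits and its exchange factor eIF2B were tested, 12 of them below 0, with a median of -0.31 and the SUV-OE pair lower in 10 and higher in 2. For comparison, among genes that reached a mean FPKM of 10 the pair was lower in 39.8%, 68.0% were below 0 and the median was -0.13. With rescaled FPKM 11 of the 16 were below 0, with a median of -0.23 and the SUV-OE pair lower in 8 and higher in 3. Those with the largest differences were Eif2s2, the β subunit of eIF2 (-0.52), and Ppp1r15a, the stress-induced phosphatase subunit GADD34 (-0.51, with groups that overlapped). All 5 eIF2B subunit genes, named after their values were seen, had the SUV-OE pair below the control pair, with log2 fold changes from -0.30 for Eif2b5 to -0.50 for Eif2b2. The 4 kinase genes Eif2ak1, Eif2ak2, Eif2ak3 and Eif2ak4, also named after their values were seen, lay between -0.10 and 0.15.

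Downstream, 14 of 18 other ATF4 and CHOP targets were tested, and they were evenly divided, with 7 below 0, 7 above 0 and a median of 0.00. The SUV-OE pair was lower in 5 of them and higher in 5. Cebpb, a C/EBP factor, had a log2 fold change of -0.78 (59.5 and 31.0 in control, 23.1 and 26.3 in SUV-OE). Stc2, the secreted glycoprotein stanniocalcin, had one of 0.90 (0.725 and 0.882 in control, 2.30 and 2.45 in SUV-OE, limma adjusted p = 0.0758, limma-voom adjusted p = 0.0156). Eif4ebp1, the translation inhibitor 4E-BP1, which limma-voom also called, had a log2 fold change of -0.65 (limma adjusted p = 0.108, limma-voom adjusted p = 0.0418). Of 14 other enzymes of serine, one-carbon and amino acid metabolism, from 16 listed, 11 were below 0 and 3 above, with a median of -0.30 and the SUV-OE pair lower in 10 and higher in 2. Mthfd1l, a mitochondrial folate enzyme, was lowest at -0.74 (limma adjusted p = 0.0995, limma-voom adjusted p = 0.0379), and Ass1, which makes argininosuccinate, was highest at 0.96 (limma adjusted p = 0.0585, limma-voom adjusted p = 0.0270). The median of the 14 enzymes was -0.12 without control replicate 3 and -0.52 without control replicate 4. It was -0.19 under quantile normalization and -0.21 with rescaled FPKM, with the SUV-OE pair lower in 6 and higher in 2 on each scale.

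Of 13 other amino acid transporters 10 were tested, with 4 below 0, 6 above, a median of 0.04 and the SUV-OE pair lower in 1 and higher in 4. With rescaled FPKM 1 was below 0 and 9 above, with a median of 0.13. The largest differences were 0.51 for Slc43a1, a leucine carrier, and 0.48 for Slc38a9, the lysosomal arginine sensor. Among 14 chaperones of the endoplasmic reticulum, which report the ATF6 and XBP1 branches of the stress response, 8 were below 0 and 6 above, the groups overlapped in 11, and the median was -0.03. With rescaled FPKM 4 were below 0 and 10 above, with a median of 0.07. Hspa5, the chaperone BiP, had the largest difference, at 293 and 261 in control against 157 and 232 in SUV-OE (log2 fold change -0.53, limma adjusted p = 0.296). Sdf2l1 followed at -0.28.

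**Figure D4:**
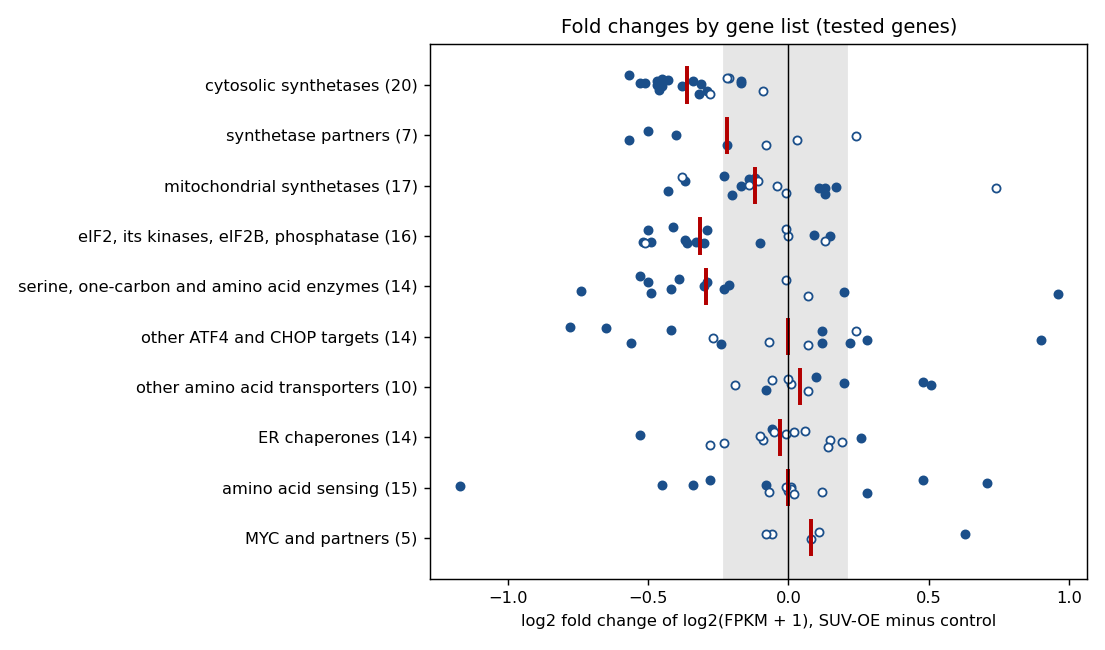
Log2 fold change of log2(FPKM + 1), SUV-OE minus control, of every tested gene in 10 lists, with the number tested in brackets, red bars for medians, and filled points where the groups do not overlap. The grey band holds the middle 50% of all tested genes (-0.23 to 0.21). In the fit drawn, the medians of the cytosolic synthetases (-0.36), the eIF2 genes (-0.31) and the serine and one-carbon enzymes (-0.30) lie left of it. In the same order these medians were -0.24, -0.20 and -0.19 under quantile normalization. Without control replicate 3 they were -0.29, -0.24 and -0.12, and the band was not drawn for those settings.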

How the data were processed

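RNA-Seq libraries of 2 control and 2 SUV-OE samples were made with a TruSeq kit that does not mark strand. The submitters' processing notes name CASAVA 1.8, TopHat2 and mm10. The values deposited were FPKM, 1 per gene in each library, which the study's methods credit to Cufflinks. Multiplied by GENCODE M21 exon length and 1 factor per library inferred from the values, those of 78.5% of genes were whole read numbers (within 0.01) in all 4 libraries, which leaves that open. Depth and limma-voom used all genes matched to GENCODE, with reads rounded where not whole (8 of the 35 genes). The authors called DEGs with DESeq2. Because the deposited unit was FPKM, limma 3.58.1 in R 4.3.3 was used on log2(FPKM + 1) with group as the only term and an intensity trend, at a mean FPKM of at least 0.5. Fold changes on this scale understate those of low genes. Adjusted p-values are Benjamini-Hochberg over all genes tested. The scripts were tested on simulated data.

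The members and lists were chosen with earlier results of these data known. Library values and the full test were given for members with an adjusted p-value under 0.05, for the 12 with the smallest p-value, and for Atf4, Asns, Phgdh, Ddit3, Chac1, Slc7a11 and Lars. Of each other list, the 2 genes with the largest fold change were named. Values of other genes were given after they were seen. limma-voom used these reads (a mean of at least 10) with the inferred factors. Alternatives were a pseudocount of 0.1, no filter, a mean FPKM of at least 1, quantile and median-of-ratios scaling, no trend, a robust trend, limma-voom, an adjusted p-value under 0.1, leaving out each library, and, added later, FPKM rescaled to estimated reads. Promoters were from RefSeq (GRCm38.p6), with Mars matched through its symbol Mars1. Figures were drawn with matplotlib 3.10.9.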

Additional observations from a re-analysis of the deposited data

How the results depend on the processing

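The number of genes called over the whole table, 177, was 116 with a pseudocount of 0.1, 885 with limma-voom, 266 with FPKM rescaled to the estimated reads (an alternative chosen after seeing the data) and 666 at an adjusted p-value under 0.1. With no filter limma called 0, with 4177 at an unadjusted p-value under 0.05, and without any 1 library it called 0, with 1166 to 3877 at an unadjusted p-value under 0.05, where the lone library of a group is assumed to vary like the others. Of the 35 genes limma-voom called 1, Asns. Of the 33 tested genes, the count with the SUV-OE pair above the control pair was 1 in the report and 2 with rescaled FPKM. It was 1 to 4 when a library was left out, the highest without control replicate 3. Over all 13736 tested genes that count was 3495, 4463 with rescaled FPKM and 4527 to 5541 when a library was left out. A lone library in a group makes the condition easier to meet. The median log2 fold change of the synthetases was -0.24 with quantile normalization, -0.27 with rescaled FPKM and -0.40 to -0.29 when a library was left out, the smallest difference again without control replicate 3. That of the other genes was -0.39 to -0.17 when a library was left out. The cause of these shifts was not tested. All 15 tested genes named by the rule kept their direction in the 135 values of the 9 alternatives that recompute the fold change. Other members did not all do so. Without control replicate 3, Slc3a2 (0.02) and Ddit4 (0.31) were above 0, as were Iars, Vars and Wars. Ddit4 was also above 0 without SUV-OE replicate 2 (0.13), and Iars under quantile normalization. Depth limits Trib3, Slc7a11 and Chac1. No paired analysis was possible because 1 replicate number, 3, is all that control and SUV-OE have in common.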

Other observations

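Genes that sense amino acids for mTORC1 gave values in both directions. Of 15 tested from 17 listed, 7 had a log2 fold change below 0 and 8 above, with a median of 0.00, and none had a limma adjusted p-value under 0.05, while 4 had an unadjusted p-value under 0.05, against 20.7% of all tested genes. limma-voom called 2, Rragb and Sesn1, where it called 6.19% of all genes it tested. Rragb, a Rag GTPase, was at 2.75 and 3.18 FPKM in control and at 0.948 and 0.598 in SUV-OE (log2 fold change -1.17, SE 0.17, limma adjusted p = 0.0642, limma-voom adjusted p = 0.0232). Its relatives Rraga, Rragc and Rragd were named after their values were seen. Rraga had a log2 fold change of -0.45 and Rragc one of 0.00. Rragd, with a mean FPKM of 0.301, was below the limit for limma, and limma-voom gave a log2 fold change of 0.61 (SE 0.43, adjusted p = 0.429). Sesn1, a sestrin that inhibits mTORC1, was at 6.95 and 7.94 in control and at 12.7 and 12.9 in SUV-OE (log2 fold change 0.71, SE 0.12, limma adjusted p = 0.0780, limma-voom adjusted p = 0.0287). Whether Rragb differs from the other Rag genes was not tested.

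MYC, which also drives synthetase genes, and its partners were 6 listed genes, 5 of them tested. Of the 5, 2 were below 0 and 3 above, and with rescaled FPKM all 5 were above. Mycn, a relative of Myc, was below the FPKM limit, listed at 0 and 0.0900 in control and at 0.462 and 0.701 in SUV-OE. limma-voom tested all 6 and called 2 as higher, Mycn (log2 fold change 4.38) and Mxd1. It called 6.19% of all genes it tested. Myc was at 59.2 and 45.4 in control and at 58.8 and 53.6 in SUV-OE (log2 fold change 0.11, limma adjusted p = 0.742), and its groups overlapped. Mxd1, which competes with MYC for MAX, was at 5.52 and 4.89 in control and at 8.78 and 8.46 in SUV-OE (log2 fold change 0.63, limma adjusted p = 0.0923, limma-voom adjusted p = 0.0339).

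The markers of the leukemic cells were present in all 4 libraries. Of Kit, Hoxa9, Hoxa10, Meis1, Ptprc and Mpo, 3 had the SUV-OE pair above the control pair and 3 below it. Of all tested genes, 25.4% had the pair above and 28.4% below. With rescaled FPKM, and under quantile normalization, 3 of these markers had the pair above and the groups overlapped in 3. Summed FPKM of 4 plasma cell markers was 58.3 and 55.3 in control against 52.7 and 66.1 in SUV-OE, mostly from Xbp1, at 57.4 and 53.3 against 46.5 and 57.6. Jchain was at 0.858 and 1.79 in control and at 5.24 and 7.62 in SUV-OE (limma adjusted p = 0.0719, limma-voom adjusted p = 0.0195).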
